A study of Homo sapiens with 8 samples.

Results

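Conjugation enzymes join a drug, hormone or bile pigment to glutathione, glucuronic acid or sulfate, and 10 of their genes were followed in HepG2 cells, a line derived from a human hepatocellular carcinoma. The genes were the glutathione transferases GSTA1, GSTA2, GSTA4 and GSTM3, the UDP-glucuronosyltransferases UGT2B4, UGT2B7 and UGT2B10, and the cytosolic sulfotransferases SULT1E1, SULT2A1 and SULT1A1. They were chosen by symbol, all 10 were found among the 26716 genes measured, and all 10 were among the 17715 genes with enough counts to be tested. Poly(A) RNA was sequenced from 8 libraries in 4 groups of 2. The siIPO8-miR-552-3p group received 30 nM importin8 siRNA and 1 nM miR-552-3p mimic, the siIPO8-NC group importin8 siRNA and the control of the mimic, the miR-552-3p group the control of the siRNA and the mimic, and the NC group both controls. Every group was thus transfected with a siRNA and a mimic or their controls, and all were harvested after 72 h.

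Conjugation is the step of drug metabolism that makes a compound more soluble in water, so that it can leave the liver in bile or blood. Glutathione transferases act on electrophiles and use glutathione, UDP-glucuronosyltransferases of the endoplasmic reticulum use UDP-glucuronic acid, and cytosolic sulfotransferases use the sulfate donor PAPS. In hepatocytes these genes are under the control of liver transcription factors such as HNF4A and of nuclear receptors, and many glutathione transferase genes also answer to the stress factor NRF2. Hepatoma lines such as HepG2 keep many liver genes but make low amounts of a number of drug-metabolising enzymes. Importin 8, the product of IPO8, is a nuclear import receptor that has been described as carrying Argonaute and microRNAs, and the crossed design asks whether the effect of the mimic depends on it.

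The mature miR-552-3p, the active strand of the mimic, is encoded on the minus strand at chr1:34669614-34669634 (GRCh38.p14, RefSeq). It is shown because the bases that pair most closely with targets, the seed at bases 2 to 8, are used to look for matching transcripts, and they are printed in capitals.
hsa-miR-552-3p: aACAGGUGacugguuagacaa
The DNA letters that pair with this seed, CACCTGT, were looked for in the 3′ UTR of the longest protein-coding transcript of each gene in the GENCODE annotation of GRCh38. None of the 10 genes held them, while 19.0% of 13697 tested genes with a 3′ UTR did. The 3′ UTRs searched ran from 194 bases in GSTA1 to 3139 in GSTM3, against a median of 1242 bases over the tested genes, so all but GSTM3 gave a shorter window than that median.

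Each library held 21608563 to 22102373 counts, and 1 count was worth 0.0438 to 0.0481 CPM, the unit that scales counts by library size. IPO8 averaged 7.97 CPM in siIPO8-miR-552-3p, 11.4 in siIPO8-NC, 25 in miR-552-3p and 34 in NC libraries, so the siRNA lowered its target, and the mimic lowered it too (log2 fold change -0.52 under importin8 siRNA, adjusted p = 0.0022, and -0.44 under control siRNA, adjusted p = 0.00083). The 2 NC libraries stood apart in that their most abundant gene took 11.3 and 11.6% of the counts, against 6.9 to 8.92% elsewhere. All 10 hepatocyte markers were present, with a summed level of 77500 to 81200 CPM in siIPO8-miR-552-3p, 70300 to 73000 in siIPO8-NC, 52400 to 52900 in miR-552-3p and 64600 to 71700 in NC libraries. The hepatocyte sum hides opposite moves. With the mimic under control siRNA 1 of the 10 rose and 7 fell at an adjusted p under 0.05. Over all genes 28.9% rose and 29.5% fell. In the same order of groups APOA2 averaged 2220, 1820, 2510 and 840 CPM, and TTR 272, 627, 55.5 and 277. The 6 fibroblast markers summed to at most 19.8 CPM in any library, with DCN and LUM at or near 0. In the same order of groups PDGFRB averaged 7.35, 6.77, 5.02 and 15.3 CPM, and COL1A1 2.48, 2.18, 3.41 and 0.31. The 5 endothelial markers, with TEK near 0, summed to 23.3 to 23.9 CPM in siIPO8-miR-552-3p, 19.5 to 21.5 in siIPO8-NC, 28.7 to 30.7 in miR-552-3p and 75.4 to 81.1 in NC libraries. Most of this was PECAM1, with means of 19.8, 15.4, 27.5 and 70.5 CPM in these groups. The 4 blood markers measured, with PTPRC and CD3E below 1 CPM on average in every group, summed to 79.6 to 85.2, 59.2 to 80, 125 to 136 and 6.55 to 8.35 CPM in the same 4 groups, most of it CD68. The remaining marker, CD79A, averaged 0.598, 0.449, 12.8 and 0.289 CPM in these groups. The 5 cholangiocyte markers summed to 395 to 398 CPM in siIPO8-miR-552-3p, 327 to 350 in siIPO8-NC, 918 to 925 in miR-552-3p and 556 in both NC libraries, with KRT7 near 0. These sums hide opposite moves. In the same order of groups KRT19 averaged 172, 67.5, 662 and 31.3 CPM, while SOX9 averaged 139, 180, 174 and 397 and EPCAM 83.6, 90.3, 83.7 and 126. The part of these marker differences in the results was not tested. In RNA from a whole culture, fewer cells of a type and less RNA per cell cannot be told apart. Nothing in the labels says that the 2 libraries of a group are separate cultures. The p-values rest on the spread between libraries of the same group, estimated for each gene over all 4 groups together and steadied by the other genes. That spread may therefore be technical.

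The mimic lowered 4 of the 10 conjugation genes under importin8 siRNA and 6 of them in cells with the control siRNA, and these counts were not tested against each other. Over all genes the share called lower was also smaller under importin8 siRNA. GSTA1, GSTA2 and SULT1A1 fell in both backgrounds. A gene was called at an adjusted p under 0.05 (edgeR's quasi-likelihood test with the Benjamini-Hochberg adjustment across the table). In siIPO8-miR-552-3p against siIPO8-NC libraries, 4 of the 10 fell (GSTA1, GSTA2, UGT2B10 and SULT1A1), and 6 did not pass, where 31.7% of all genes tested passed, 15% higher and 16.7% lower. The 4 that fell were also the only ones with an unadjusted p under 0.05 in edgeR, and DESeq2 gave 0 higher as well. The median log2 fold change of the 10 genes was -0.04, against 0 for all genes.

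In miR-552-3p against NC libraries, 6 of the 10 genes fell (GSTA1, GSTA2, GSTM3, UGT2B4, SULT2A1 and SULT1A1), 2 rose (UGT2B7 and UGT2B10), and GSTA4 and SULT1E1 did not pass, where 58.4% of all genes passed, 28.9% higher and 29.5% lower. The median of the 10 was -0.62, against -0.01 for all genes. In absolute size, the change of GSTM3 was larger than that of 95.3% of the genes tested, that of GSTA1 larger than 87.6% and that of SULT2A1 larger than 30% only.

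The importin8 siRNA raised some of the genes in each background and lowered 1. In siIPO8-miR-552-3p against miR-552-3p libraries, 6 rose (GSTA1, GSTA4, UGT2B4, UGT2B10, SULT2A1 and SULT1A1), UGT2B7 fell, and GSTA2, GSTM3 and SULT1E1 did not pass, where 33.5% of all genes passed, 17.3% higher and 16.2% lower. The median of the 10 was 0.67, against -0.01 for all genes, and 2 of the 6 rose at least 2-fold. In siIPO8-NC against NC libraries, 6 of the 10 rose (GSTA1, GSTA2, UGT2B4, UGT2B10, SULT1E1 and SULT1A1), GSTM3 fell, and GSTA4, UGT2B7 and SULT2A1 did not pass, where 47% of all genes passed, 25.4% higher and 21.6% lower. SULT1E1 passed the count filter through the siIPO8 libraries alone, and of the 9 other genes 5 rose, with a median of 0.29, against 0 for all genes. The count of 6 was 4 without siIPO8-NC replicate 1, siIPO8-NC replicate 2 or NC replicate 2 and 7 without NC replicate 1, and 4 rose at least 2-fold. Each of the 4 groups enters 2 of these comparisons, so the comparisons share libraries and are not independent of each other.

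The effect of the mimic itself differed between the siRNA backgrounds for 6 of the 10 genes. This difference is the log2 effect of the mimic under importin8 siRNA minus its effect under control siRNA, so a positive value marks a fall that was smaller, or a rise that was larger, under importin8 siRNA. It was positive for GSTM3, UGT2B4, SULT2A1 and SULT1A1 and negative for UGT2B7 and UGT2B10, and 31.3% of all genes passed, 14.2% positive and 17.1% negative. GSTA1, GSTA2, GSTA4 and SULT1E1 did not pass, which does not show that the mimic acted alike on them in both backgrounds.

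**Figure D1:**
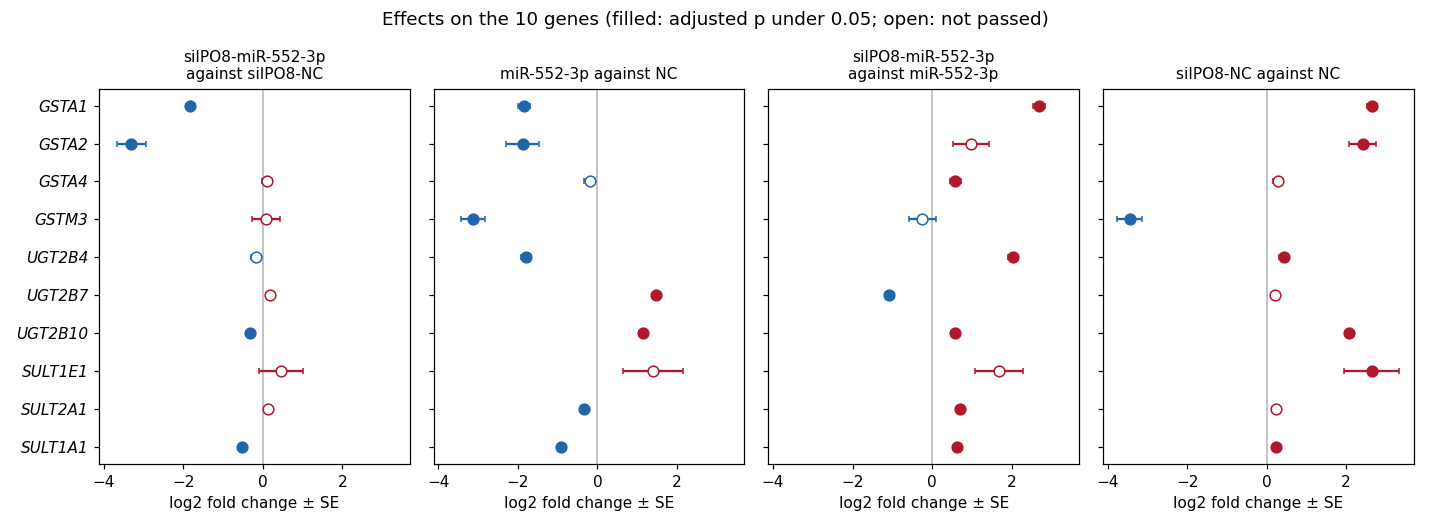
Log2 fold change (x axis) of each of the 10 genes in 4 comparisons, with bars of 1 SE, filled where the adjusted p was under 0.05 and open where it was not. From left to right GSTA1 sits at -1.82 and -1.85 in the 2 mimic comparisons and at 2.69 and 2.65 in the 2 siRNA comparisons, while GSTM3 is at 0.09 and -3.12 and then at -0.24 and -3.45.

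**Figure D2:**
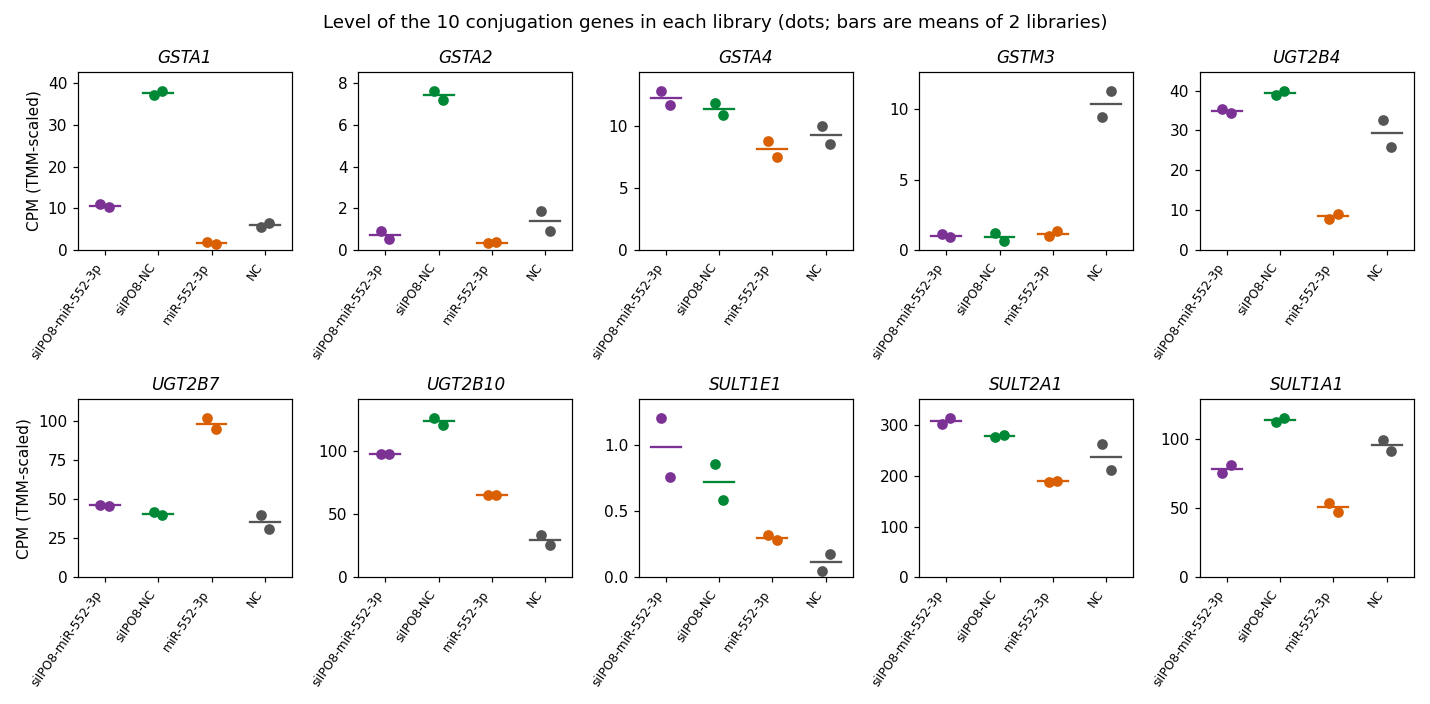
Level in CPM (y axis, TMM-scaled, from 0, a scale of its own for each gene) of the 10 genes in each of the 8 libraries (dots) with the mean of each group of 2 (bars). UGT2B7 is highest in the miR-552-3p libraries at 94.9 and 102 CPM, GSTM3 is highest in the NC libraries at 9.43 and 11.3 CPM, and GSTA1 and GSTA2 are highest in the siIPO8-NC libraries.

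Between genes, levels were compared per length, on the FPKM scale of fragments by transcript length and library size. In NC libraries SULT2A1 had the highest mean level at 123 FPKM, then SULT1A1 at 67.8, UGT2B7 at 21.1, UGT2B4 at 14.3, UGT2B10 at 11.1, GSTA4 at 7.66, GSTA1 at 4.53, GSTM3 at 1.36, GSTA2 at 1.1 and SULT1E1 at 0.08. Among neighbours in this order, the libraries of GSTM3 (0.93 and 1.8 FPKM) and GSTA2 (1.44 and 0.75 FPKM) overlapped, and those of UGT2B4 (15.64 and 12.98 FPKM) and UGT2B10 (12.47 and 9.82 FPKM) nearly touched. UGT2B4 and UGT2B10 averaged 29.2 and 29.4 CPM in NC libraries, so their order rests on the gene lengths used. The count and FPKM of UGT2B10 imply 2690 to 2760 bases, where its longest protein-coding transcript has 1931. Those of GSTA1 imply 1330 to 1380 bases against 1019, and those of GSTA4 1240 to 1300 against 859. For SULT1E1 the implied length ran from 1340 to 2560 between libraries. Orders and shares in FPKM are uncertain to that extent. SULT2A1 was the highest of the 10 in every group, at 150, 143 and 94.1 FPKM in siIPO8-miR-552-3p, siIPO8-NC and miR-552-3p libraries. Next in level came SULT1A1 in the siIPO8-miR-552-3p, siIPO8-NC and NC groups, and UGT2B7, at 56.5 FPKM, in the miR-552-3p group.

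Alpha-class glutathione transferases lie together on chromosome 6 (GRCh38, minus strand), GSTA2 at chr6:52750089-52763569, GSTA1 at chr6:52791664-52803910 and GSTA4 at chr6:52977948-52995378. GSTA1 and GSTA2 are the major alpha-class enzymes of liver, which detoxify electrophiles and reduce lipid peroxides, and GSTA4 prefers 4-hydroxynonenal, an aldehyde formed when lipids oxidise. GSTA1 had 11 and 10.3 CPM in siIPO8-miR-552-3p libraries, 37.1 and 38.1 in siIPO8-NC, 1.88 and 1.43 in miR-552-3p and 5.45 and 6.48 in NC libraries. No groups overlapped, and the order from the top was siIPO8-NC, siIPO8-miR-552-3p, NC and miR-552-3p. The mimic lowered GSTA1 in both backgrounds, with log2 fold changes of -1.82 (SE 0.12, adjusted p = 6.1e-06) under importin8 siRNA and -1.85 (SE 0.16, adjusted p = 5.4e-06) under control siRNA. The difference of these effects was 0.03 (SE 0.19, adjusted p = 0.93). The importin8 siRNA raised GSTA1 by 2.69 with the mimic (SE 0.16, adjusted p = 2.1e-06) and by 2.65 without it (SE 0.12, adjusted p = 2e-07).

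GSTA2 had 0.894 and 0.549 CPM in siIPO8-miR-552-3p libraries, 7.62 and 7.21 in siIPO8-NC, 0.358 and 0.365 in miR-552-3p and 1.85 and 0.923 in NC libraries. Its siIPO8-NC libraries stood well above all others, and both miR-552-3p libraries, at 7.83 and 7.75 expected counts, lay below the level that the count filter asks for. Under importin8 siRNA the mimic lowered GSTA2 by 3.31 on the log2 scale (SE 0.36, adjusted p = 0.00012), that is 9.93-fold. Under control siRNA it fell by 1.88 (SE 0.42, adjusted p = 0.0031). The difference of -1.43 between these effects did not pass (SE 0.57, adjusted p = 0.087), though it did without NC replicate 1 (-2, adjusted p = 0.016). With the mimic, the value of the importin8 siRNA for GSTA2 was 0.98 (SE 0.45, adjusted p = 0.12), and without the mimic it raised the gene by 2.42 (SE 0.34, adjusted p = 0.00022).

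The windows around the start sites of GSTA1 and GSTA2 are printed because these genes were lowered by the mimic and raised in siIPO8-NC libraries together. They are the 250 bases before and 50 after the RefSeq start (GRCh38.p14, minus strand), at chr6:52803767-52804066 for GSTA1 and chr6:52763426-52763725 for GSTA2, with the TATA box TATAAA in capitals.
GSTA1: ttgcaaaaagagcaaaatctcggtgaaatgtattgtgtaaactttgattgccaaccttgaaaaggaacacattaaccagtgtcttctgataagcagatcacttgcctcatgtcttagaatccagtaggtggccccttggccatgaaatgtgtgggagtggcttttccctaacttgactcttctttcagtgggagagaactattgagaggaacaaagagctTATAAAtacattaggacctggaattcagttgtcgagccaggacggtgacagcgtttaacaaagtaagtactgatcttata
GSTA2: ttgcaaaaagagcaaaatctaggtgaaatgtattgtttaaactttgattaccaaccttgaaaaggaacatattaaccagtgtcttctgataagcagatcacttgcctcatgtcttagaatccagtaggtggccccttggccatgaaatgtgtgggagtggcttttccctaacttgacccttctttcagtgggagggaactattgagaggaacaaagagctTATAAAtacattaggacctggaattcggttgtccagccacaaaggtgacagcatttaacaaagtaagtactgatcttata
The 2 windows were identical at 288 of 300 aligned bases (96.0%) and carried the TATA box at the same place, -30 to -25. Over 35116 promoter windows of this length, 11.5% held the TATA box on either strand. Their transcripts are alike too: 28.9% of the 50-base windows of GSTA1, 50 being the read length, occur in another gene, 23.9% in GSTA2, and 18.4% of those of GSTA2 occur in GSTA1 or a pseudogene. The division of reads between GSTA1 and GSTA2 is therefore uncertain. With the 4 GSTA genes measured summed, the mimic effect was -1.25 under importin8 siRNA (adjusted p = 1.1e-05) and -0.71 under control siRNA (adjusted p = 0.0002), with a difference of -0.54 (adjusted p = 0.014). This sum also holds GSTA4, which did not pass with the mimic in either background. GSTA4 gave 59.2 and 56.1% of the FPKM of GSTA1, GSTA2 and GSTA4 in NC libraries, but 21.5 and 20.3% in siIPO8-NC libraries. The effects of the sum and their difference therefore cannot be read as those of GSTA1 and GSTA2, which were not summed on their own.

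The longest protein-coding transcript of GSTA4, of 859 bases, shared no 50-base window with another gene. It codes over 387 bases, against 666 in GSTA1 and GSTA2, and other transcripts of the gene were not searched. GSTA4 had 12.8 and 11.7 CPM in siIPO8-miR-552-3p libraries, 11.8 and 10.9 in siIPO8-NC, 8.79 and 7.49 in miR-552-3p and 10 and 8.55 in NC libraries. Its levels stayed within a narrow range, and neighbouring groups overlapped except siIPO8-NC with NC. It rose only in siIPO8-miR-552-3p against miR-552-3p libraries among the comparisons made, by 0.59 (SE 0.13, adjusted p = 0.0071), a call lost without siIPO8-miR-552-3p replicate 1 (0.53, adjusted p = 0.056) or miR-552-3p replicate 2 (0.49, adjusted p = 0.057). The make-up of the alpha class differed between groups, and GSTA4 gave 80.3 and 81.2% of the summed FPKM of the 3 genes in miR-552-3p libraries, against 59.2 and 56.1% in NC libraries. In siIPO8-NC libraries GSTA1 gave 64.3 and 65.9% and GSTA4 21.5 and 20.3%.

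GSTM3, a mu-class enzyme better known from brain and testis, lies on chromosome 1 at chr1:109733932-109741038 (minus strand). It had 1.11 and 0.913 CPM in siIPO8-miR-552-3p libraries, 1.24 and 0.627 in siIPO8-NC, 0.994 and 1.35 in miR-552-3p and 9.43 and 11.3 in NC libraries. The 3 groups with an active agent overlapped each other, and both NC libraries lay far above all 6 others. Against NC, GSTM3 fell by 3.12 with the mimic (SE 0.3, adjusted p = 1.1e-05), and importin8 siRNA gave a value of -3.45 (SE 0.31, adjusted p = 1.3e-05). Adding the second agent left values of 0.09 (SE 0.35, adjusted p = 0.88) for the mimic under importin8 siRNA and -0.24 (SE 0.34, adjusted p = 0.65) for the siRNA with the mimic. The difference of the mimic effects was 3.21 (SE 0.47, adjusted p = 0.00059), the largest of the 10, and larger than that of 97.2% of all genes. All the calls on GSTM3 rest on the NC libraries, and the gene length implied by its count and FPKM ran from 5280 to 10700 bases between libraries, above the 4046 of its longest transcript, so its FPKM is less certain than its count.

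The 3 UGT2B genes lie in a cluster on chromosome 4, UGT2B10 at chr4:68815993-68831196 and UGT2B7 at chr4:69051363-69112987 on the plus strand and UGT2B4 at chr4:69480165-69526014 on the minus strand. UGT2B4 acts on bile acids and is a known target of the bile acid receptor FXR, UGT2B7 acts on morphine, many other drugs and steroids, and UGT2B10 forms N-glucuronides of nicotine and tertiary amines. They did not move as a family, since with the control siRNA the mimic lowered UGT2B4 and raised UGT2B7 and UGT2B10.

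UGT2B4 had 35.4 and 34.3 CPM in siIPO8-miR-552-3p libraries, 38.8 and 39.9 in siIPO8-NC, 7.74 and 9.17 in miR-552-3p and 32.7 and 25.8 in NC libraries. The miR-552-3p libraries were the low ones, and the other 3 groups lay close to each other without overlap. With the mimic its value was -0.18 under importin8 siRNA (SE 0.11, adjusted p = 0.27), while under control siRNA it fell by 1.79 (SE 0.13, adjusted p = 1.2e-06). The difference was 1.61 (SE 0.17, adjusted p = 8.7e-05). The importin8 siRNA raised UGT2B4 by 2.04 with the mimic (SE 0.13, adjusted p = 3.3e-06) and by 0.43 without it (SE 0.11, adjusted p = 0.01), and the second call was lost without siIPO8-NC replicate 2 (0.42, adjusted p = 0.053) or NC replicate 2 (0.27, adjusted p = 0.056).

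UGT2B7 had 46.6 and 46 CPM in siIPO8-miR-552-3p libraries, 41.8 and 39.9 in siIPO8-NC, 102 and 94.9 in miR-552-3p and 39.8 and 31.1 in NC libraries. Here the miR-552-3p libraries were the high ones, and siIPO8-NC and NC nearly touched. Under importin8 siRNA the mimic value of UGT2B7 was 0.18 (SE 0.1, adjusted p = 0.22), and under control siRNA the mimic raised it by 1.47 (SE 0.1, adjusted p = 1.2e-06), or 2.77-fold. The difference was -1.29 (SE 0.14, adjusted p = 0.00014). The importin8 siRNA lowered UGT2B7 by 1.09 on the log2 scale in the presence of the mimic (adjusted p = 3.7e-05), and without it the value was 0.21 (SE 0.1, adjusted p = 0.13), which passed without NC replicate 1 (0.39, adjusted p = 0.0031).

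UGT2B10 had 97.7 and 98 CPM in siIPO8-miR-552-3p libraries, 126 and 121 in siIPO8-NC, 65.2 and 65.5 in miR-552-3p and 33.4 and 25.4 in NC libraries. No groups overlapped, and NC was the lowest. With importin8 siRNA present the mimic lowered it by 0.33 (SE 0.1, adjusted p = 0.028). Either agent alone raised it, the mimic by 1.15 (SE 0.11, adjusted p = 9.8e-06), and the siRNA against importin8 by 2.07 (SE 0.1, adjusted p = 5.2e-07). In mimic-treated cells the siRNA raised it by 0.58 (SE 0.1, adjusted p = 0.0016), and the difference of the mimic effects was -1.48 (SE 0.14, adjusted p = 6.1e-05). The call of -0.33 was lost when any siIPO8 library or miR-552-3p replicate 2 was left out, with values of -0.36 to -0.3 over all single libraries left out and an adjusted p of up to 0.14.

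The make-up of the UGT2B pool differed between groups, given here as shares of FPKM that depend on the uncertain length used for UGT2B10. UGT2B4 gave 21.3 and 21% of the summed FPKM of the 3 genes in siIPO8-miR-552-3p libraries, 21.3 and 22.3% in siIPO8-NC, 4.44 and 5.3% in miR-552-3p and 30.6 and 30.9% in NC libraries. UGT2B7 gave 67.5 and 66.8% in miR-552-3p libraries, against 45 and 45.7% in NC libraries, and was the leading gene in both. UGT2B10 led in both siIPO8 groups, with 44.8 and 45.2% in siIPO8-miR-552-3p and 51.8 and 51.1% in siIPO8-NC libraries. The summed level was 76.2 and 76.8 FPKM in siIPO8-miR-552-3p libraries, 89.2 and 87.5 in siIPO8-NC, 84.9 and 83.4 in miR-552-3p and 51.1 and 42 in NC libraries. With the counts of the 7 UGT2B genes measured taken as 1 feature, the mimic raised the family by 0.79 under control siRNA (SE 0.1, adjusted p = 0.00012), the direction opposite to that of UGT2B4 alone. The summed family was at -0.18 for the mimic under importin8 siRNA (adjusted p = 0.22), so the UGT2B10 call of -0.33 does not hold for the sum. For the siRNA in mimic-treated cells the sum was at 0.12 (adjusted p = 0.41), where UGT2B4 and UGT2B10 alone rose and UGT2B7 alone fell. Without the mimic the siRNA raised the sum by 1.1 (adjusted p = 2.6e-05).

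**Figure D3:**
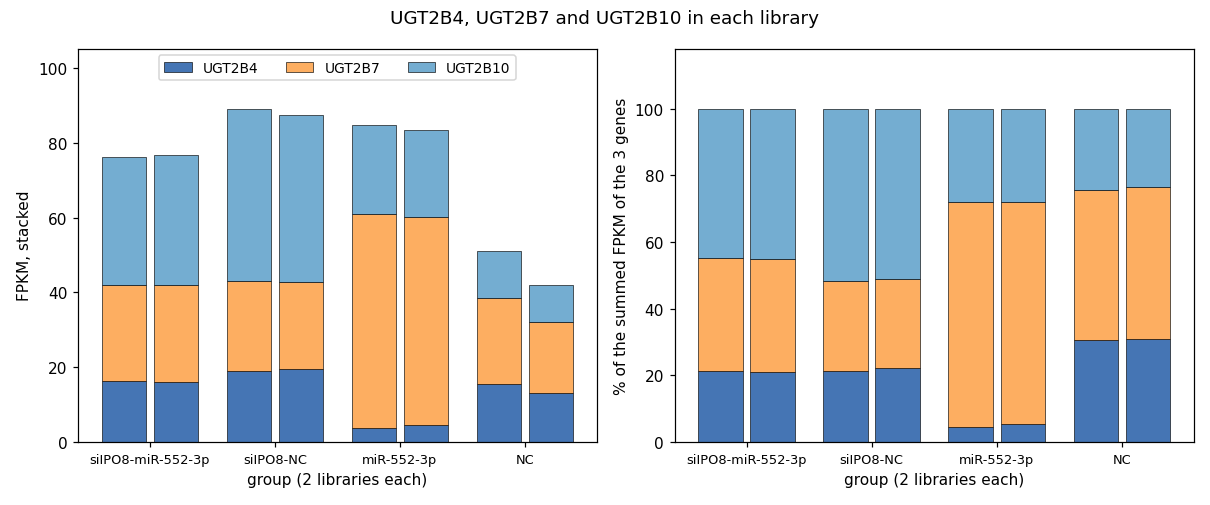
Level of UGT2B4, UGT2B7 and UGT2B10 in each of the 8 libraries, stacked in FPKM (left, y axis from 0) and as percent of the sum of the 3 genes (right). The miR-552-3p bars hold 4.44 and 5.3% UGT2B4, against 30.6 and 30.9% in the NC bars, and the UGT2B10 part is widest in the siIPO8-NC bars.

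The start site windows of UGT2B7 and UGT2B10 are printed because these neighbours both rose with the mimic under control siRNA and both had a negative difference of mimic effects. They span chr4:69096224-69096523 for UGT2B7 and chr4:68815744-68816043 for UGT2B10 (RefSeq, GRCh38.p14, plus strand), and capitals mark the TATA box letters TATAAA, the nuclear receptor motif AGGTCA and the antioxidant response element TGACNNNGC, on either strand. The RefSeq start used for UGT2B7 lies inside the span that GENCODE gives the gene.
UGT2B7: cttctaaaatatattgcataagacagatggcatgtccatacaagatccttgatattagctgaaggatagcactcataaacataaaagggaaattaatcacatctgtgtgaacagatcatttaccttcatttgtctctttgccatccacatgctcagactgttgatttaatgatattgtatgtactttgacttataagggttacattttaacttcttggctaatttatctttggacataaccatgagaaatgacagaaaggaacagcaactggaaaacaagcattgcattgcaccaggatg
UGT2B10: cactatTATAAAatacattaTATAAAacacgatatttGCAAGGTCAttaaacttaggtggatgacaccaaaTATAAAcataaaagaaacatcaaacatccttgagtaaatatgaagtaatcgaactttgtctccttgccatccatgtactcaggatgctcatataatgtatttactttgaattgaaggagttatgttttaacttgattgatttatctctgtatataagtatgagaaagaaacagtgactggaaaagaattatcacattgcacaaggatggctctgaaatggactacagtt
The 2 windows were 62.6% identical over 318 aligned columns. None of the motifs searched was found in the UGT2B7 window, while that of UGT2B10 held TATAAA at -244, -230 and -179 and AGGTCA at -210 to -205, which overlaps the antioxidant element at -213 to -205. AGGTCA occurred in 13.8% and the antioxidant element in 13.3% of all promoter windows. For UGT2B10, 31.7% of its 50-base windows occur in another gene, most in UGT2B pseudogenes and UGT2B11, so its count is less certain than those of UGT2B7 (6.75%) and UGT2B4 (3.16%).

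In the other windows held by RefSeq, those of GSTA4, GSTM3, SULT1E1 and SULT2A1, the same search found the TATA box at -29 to -24 of SULT1E1, and AGGTCA and the antioxidant element overlapping at -9 to -1 of GSTA4. The HNF4-specific motif CAAAGTCCA, the AP-1 motif TGAGTCA and the letters CACCTGT that pair with the seed of miR-552-3p were in none of the 8 windows, against 0.384, 4.95 and 4.11% of all windows. These are matches of letters, and binding was not measured.

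SULT2A1, the sulfotransferase of dehydroepiandrosterone and bile acids, lies at chr19:47870466-47886397 (minus strand). It had 302 and 314 CPM in siIPO8-miR-552-3p libraries, 276 and 281 in siIPO8-NC, 188 and 191 in miR-552-3p and 263 and 211 in NC libraries. No groups overlapped, but the 2 NC libraries were further apart than the pairs of the other groups. The importin8 siRNA raised SULT2A1 by 0.7 with the mimic (SE 0.09, adjusted p = 0.00031), and without it the value was 0.23 (SE 0.09, adjusted p = 0.065), which passed with DESeq2 (0.22, adjusted p = 0.046) and without NC replicate 1 (0.39, adjusted p = 0.00069). Under importin8 siRNA the value of the mimic was 0.14 (SE 0.09, adjusted p = 0.28). Under control siRNA the mimic lowered it by 0.33 (SE 0.09, adjusted p = 0.013), a call lost without miR-552-3p replicate 1 (-0.31, adjusted p = 0.067) or miR-552-3p replicate 2 (-0.33, adjusted p = 0.052). The size of this fall rested on the NC libraries, at -0.16 without NC replicate 1 (adjusted p = 0.049) and -0.48 without NC replicate 2 (adjusted p = 0.00011). The difference of these effects, 0.47 (SE 0.13, adjusted p = 0.022), was lost when any library but siIPO8-miR-552-3p replicate 1 and the NC libraries was left out, with an adjusted p of up to 0.074.

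SULT1A1, the main hepatic sulfotransferase of phenols and phenolic drugs, lies at chr16:28605196-28623625 (minus strand). It had 75.5 and 81.3 CPM in siIPO8-miR-552-3p libraries, 112 and 115 in siIPO8-NC, 53.8 and 47.4 in miR-552-3p and 99.6 and 91.4 in NC libraries. No groups overlapped, and those with the mimic were the 2 low ones. The mimic lowered SULT1A1 by 0.53 under importin8 siRNA (SE 0.08, adjusted p = 0.00062) and by 0.92 under control siRNA (SE 0.08, adjusted p = 4.2e-06). The difference of 0.39 (SE 0.11, adjusted p = 0.023) was lost without siIPO8-miR-552-3p replicate 2, either siIPO8-NC library or miR-552-3p replicate 2, at 0.3 to 0.41 and an adjusted p of 0.054 to 0.088. The importin8 siRNA raised it by 0.63 with the mimic (SE 0.08, adjusted p = 0.00021) and by 0.24 without it (SE 0.08, adjusted p = 0.023). The second of these calls was lost with DESeq2 (adjusted p = 0.057), upper quartile scaling (0.18, adjusted p = 0.083), either siIPO8-NC library left out (adjusted p = 0.067 and 0.1) or NC replicate 2 left out (0.18, adjusted p = 0.11). Of its 50-base windows 24.7% occur elsewhere, mostly in SULT1A3 and SULT1A4, and the 4 SULT1A genes summed gave mimic effects of -0.54 under importin8 siRNA (adjusted p = 0.00024) and -0.94 under control siRNA (adjusted p = 1.3e-06). For the siRNA the sum was at 0.52 with the mimic (adjusted p = 0.00028) and at 0.13 without it (adjusted p = 0.14), so the call of 0.24 was lost there as well.

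SULT1E1, the estrogen sulfotransferase, at chr4:69841212-69860152 (minus strand), was the rarest of the 10. It had 25 and 16 expected counts in siIPO8-miR-552-3p libraries, 19 and 13 in siIPO8-NC, 6.9 and 6 in miR-552-3p and 1.13 and 4.04 in NC, which is 0.0509 to 1.2 CPM over the 8 libraries. The siIPO8 groups overlapped each other and lay above the other 2 groups, and only they reached the level of the count filter, so that the gene was tested because of them. Summed over the 2 libraries, siIPO8-NC held 32 and NC 5 counts, a ratio scaled for library size of 6.47 with an exact 95% interval of 2.5 to 21.3 that covers counting error only. In edgeR the rise was 2.64 (SE 0.7, adjusted p = 0.011), lost with DESeq2 (2.69, adjusted p = 0.05) and without siIPO8-NC replicate 1 (2.35, adjusted p = 0.069) or NC replicate 1 (1.99, adjusted p = 0.07). With the mimic, siIPO8-miR-552-3p held 41 and miR-552-3p 13 counts, a ratio of 3.24 (1.7 to 6.6), and the fitted 1.68 did not pass (SE 0.6, adjusted p = 0.056), though it passed with limma-voom (1.59, adjusted p = 0.047), in a fit of those 4 libraries (adjusted p = 0.034) and without either NC library. The mimic ratios were 1.36 (0.837 to 2.24) under importin8 siRNA and 2.72 (0.91 to 9.74) under control siRNA, and neither the effects (adjusted p = 0.59 and 0.14) nor their difference (adjusted p = 0.49) passed. A pseudogene, AC108941.2, shares 23.6% of its 50-base windows.

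Other genes of the same families were read from lists of the human glutathione transferases, glucuronosyltransferases and sulfotransferases. The counts of these and the later lists stand beside the following shares of all genes called higher and lower. With the mimic these were 28.9 and 29.5% under control siRNA and 15 and 16.7% under importin8 siRNA. They were 25.4 and 21.6% in siIPO8-NC against NC libraries and 17.3 and 16.2% in siIPO8-miR-552-3p against miR-552-3p libraries. No list was tested as a set. Of 13 other glutathione transferases tested, 9 fell and 2 rose in miR-552-3p against NC libraries, with a median of -0.72. GSTT1, a theta-class enzyme, averaged 24.7 ± 0.504 CPM in miR-552-3p and 74.6 ± 4.18 in NC libraries (SD, n = 2 each), and GSTZ1, which takes part in tyrosine breakdown, fell by 0.79 (adjusted p = 0.0017). MGST1, a membrane-bound glutathione transferase, rose, with 162 ± 3.83 CPM in miR-552-3p and 59.3 ± 5.41 in NC libraries. In siIPO8-NC against NC libraries 5 of the 13 rose and 4 fell, and MGST1 was at 1.15 (adjusted p = 1.4e-06), GSTO1, an omega-class enzyme, at 0.82 (adjusted p = 3.3e-05) and GSTT1 at -1.06 (adjusted p = 1.3e-06). Under importin8 siRNA the mimic lowered 5 and the other 8 did not pass, with GSTM4 at -0.44, MGST2 at -0.37 and GSTK1 at -0.34. With the mimic present the siRNA raised 4 and lowered 1 of the 13, with MGST2 at 0.96 (adjusted p = 1.4e-05).

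The other UDP-glucuronosyltransferases moved upward where they passed. Of 8 tested, 3 rose and 5 did not pass in miR-552-3p against NC libraries (median 0.6), and 5 rose and 3 did not pass in siIPO8-NC against NC libraries (median 1.73). UGT1A1, which conjugates bilirubin, averaged 31.3 ± 0.186 CPM in siIPO8-miR-552-3p, 34 ± 1.81 in siIPO8-NC, 19.5 ± 0.0192 in miR-552-3p and 7.67 ± 1.65 in NC libraries (SD, n = 2 each). It rose by 1.34 with the mimic (adjusted p = 7.7e-06) and by 2.15 with importin8 siRNA (adjusted p = 6.6e-07), an order of groups like that of UGT2B10. UGT2A3, a bile acid glucuronosyltransferase next to the UGT2B genes, rose with the mimic by 0.43 under importin8 siRNA (adjusted p = 0.011) and by 0.63 under control siRNA (adjusted p = 0.00058). The UGT1A genes share exons, and counts of single UGT1A genes are therefore uncertain.

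Of 6 other sulfotransferases tested, 2 rose and 4 fell with the mimic under control siRNA. SULT1C4, a sulfotransferase of fetal tissues, averaged 24.2 ± 0.367 CPM in siIPO8-miR-552-3p, 8.21 ± 0.206 in siIPO8-NC, 55.6 ± 0.21 in miR-552-3p and 3.56 ± 0.595 in NC libraries (SD, n = 2 each). It rose with the mimic by 1.56 under importin8 siRNA (adjusted p = 5.6e-06) and by 3.96 under control siRNA (adjusted p = 2.1e-09). SULT1C2, its neighbour in the family, fell by 0.36 under importin8 siRNA (adjusted p = 0.012) and rose by 2.16 under control siRNA (adjusted p = 3.3e-08). SULT1A3, whose near-identical copy makes its count uncertain, fell by 1.37 (adjusted p = 0.028) under control siRNA. In siIPO8-NC against NC libraries 3 of the 6 rose, SULT1C2 by 1.3 and SULT1C4 by 1.2, and 3 did not pass.

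Among the genes named from these lists, the steepest falls were in ACSM genes. Of 12 genes of methyl, acetyl and amino acid conjugation tested, 8 fell and 2 rose with the mimic under control siRNA, with a median of -1.44. ACSM2A, ACSM1 and ACSM3, mitochondrial ligases that activate medium-chain fatty acids and aromatic acids such as benzoate before they are joined to glycine, fell, at -5.45 (adjusted p = 1.7e-09), -5.26 (adjusted p = 1.7e-09) and -4.29 (adjusted p = 5.8e-08). ACSM2A averaged 8.8 ± 0.994 CPM in siIPO8-miR-552-3p, 24.9 ± 2.22 in siIPO8-NC, 1.33 ± 0.166 in miR-552-3p and 59.2 ± 3.3 in NC libraries (SD, n = 2 each). Under importin8 siRNA the mimic lowered 8 of the 12 and raised 1, with ACSM1 at -1.93 and ACSM2A at -1.5. In siIPO8-NC against NC libraries 6 fell and 1 rose, and in siIPO8-miR-552-3p against miR-552-3p libraries 7 rose and 1 fell, with ACSM2A at 2.71 and ACSM2B at 2.64.

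Genes that supply the cofactors of conjugation rose more often than they fell with the mimic under control siRNA, where 28.9% of all genes rose and 29.5% fell. Of 19 tested, 6 rose and 4 fell under importin8 siRNA (median 0.1), and 11 rose and 4 fell under control siRNA (median 0.5). GCLC, the catalytic subunit of the enzyme that limits glutathione synthesis, averaged 290 ± 12.4 CPM in siIPO8-miR-552-3p and 91.1 ± 5.53 in siIPO8-NC libraries, and 308 ± 4.61 in miR-552-3p and 60.8 ± 7.09 in NC libraries (SD, n = 2 each). SLC7A11, the cystine carrier, rose by 2.37 (adjusted p = 3.3e-09) and CTH, which makes cysteine from cystathionine, by 2.42 (adjusted p = 1.6e-08) under control siRNA. PAPSS1, which makes the sulfate donor PAPS, fell with the mimic under control siRNA by 1.99 (adjusted p = 5.3e-09). It averaged 48.5 CPM in siIPO8-miR-552-3p, 56.5 in siIPO8-NC, 49.8 in miR-552-3p and 198 in NC libraries. In siIPO8-NC against NC libraries PAPSS1 fell by 1.81 (adjusted p = 3.9e-08), and BPNT1, which removes the spent donor, by 1.34 (adjusted p = 3.1e-06). In that comparison 10 of the 19 rose and 3 fell, and in siIPO8-miR-552-3p against miR-552-3p libraries 2 rose and 7 fell, with BPNT1 at -1.42 and SLC7A11 at -1.1.

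Of 15 genes of deconjugation and glutathione turnover, 2 rose and 5 fell with the mimic under importin8 siRNA (median -0.2), and 4 rose and 5 fell under control siRNA (median -0.05). The peptidases DPEP1 and ANPEP, which trim glutathione conjugates outside the cell, fell in both backgrounds, at -1.84 (adjusted p = 2.6e-06) and -1.23 (adjusted p = 2.2e-06) under importin8 siRNA and at -3.06 (adjusted p = 6e-09) and -1.9 (adjusted p = 9.7e-09) under control siRNA. GGT5, which begins that trimming, rose by 2.1 under control siRNA (adjusted p = 2e-06), with 13.3 CPM in miR-552-3p and 3.1 in NC libraries. GGT1, of the same family, had 86.2 and 89.5 CPM in these groups and did not pass (-0.05, adjusted p = 0.49). In siIPO8-NC against NC libraries 6 of the 15 rose and 3 fell, among them DPEP1 at -1.14 (adjusted p = 4.4e-06), and in siIPO8-miR-552-3p against miR-552-3p libraries 5 rose and 6 fell.

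Of 26 regulators of conjugation genes, 7 rose and 10 fell with the mimic under importin8 siRNA (median -0.26), and 10 rose and 11 fell under control siRNA (median -0.06). NR5A2, a nuclear receptor of bile acid and steroid genes, averaged 5.28 ± 0.048 CPM in miR-552-3p and 46.5 ± 2.37 in NC libraries (SD, n = 2 each), and it was at 8.18 ± 0.0696 CPM in siIPO8-NC libraries. CEBPB rose by 1.98 (adjusted p = 8.1e-09) and PPARA, the fatty acid receptor, fell by 1.58 (adjusted p = 2e-07) with the mimic under control siRNA. NR0B2, the repressor SHP that FXR induces, rose with importin8 siRNA by 1.81 with the mimic (adjusted p = 4.5e-07) and by 1.28 without it (adjusted p = 5e-07). In siIPO8-miR-552-3p against miR-552-3p libraries 13 of the 26 rose, among them the FXR gene NR1H4 at 1.31 (adjusted p = 1.4e-06) and CEBPA at 1.28 (adjusted p = 4.1e-06), and 2 fell, and in siIPO8-NC against NC libraries 14 rose and 5 fell.

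**Figure D4:**
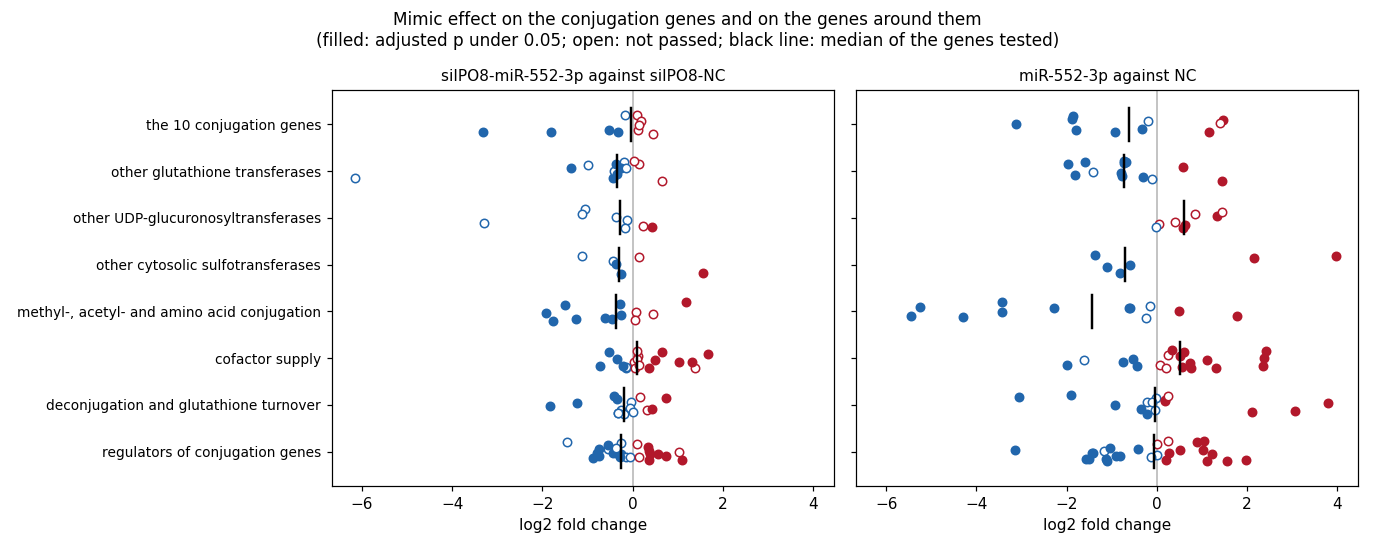
Log2 fold change (x axis) with the mimic of the 10 conjugation genes and of 7 lists of related genes (rows), in siIPO8-miR-552-3p against siIPO8-NC libraries (left) and miR-552-3p against NC libraries (right), 1 dot for each gene tested, filled where the adjusted p was under 0.05, with the median as a black line. The median of methyl, acetyl and amino acid conjugation is -0.38 on the left and -1.44 on the right, and that of the 10 genes is -0.04 on the left and -0.62 on the right. The open dot at -6.16 is GSTP1, which had 0 counts in both siIPO8-miR-552-3p libraries, so this fitted value is no measure of size.

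For each of the 10, the genes with the most similar course over the 8 libraries were found among 10459 protein-coding genes with a mean of at least 100 counts, by the root mean square distance of centred log2 CPM. For UGT2B10 they were SLC2A14 at 0.1 and UGT1A1 at 0.11, where the course of UGT2B10 itself had a root mean square of 0.8. UGT2B4 lay nearest to ITIH1, a hyaluronan-binding plasma protein of liver, at 0.15, UGT2B7 to ADGRE3 at 0.09, SULT1A1 to QPRT at 0.05, SULT2A1 to TVP23B at 0.08 and GSTA4 to EIF2D at 0.06. The largest distances were those of GSTA1, nearest to MIXL1 at 0.38, GSTA2, nearest to TBX10 at 0.47, SULT1E1, nearest to UNC93A at 0.45, and GSTM3, nearest to CAB39L at 0.3. These 4 genes also changed most, with a root mean square of 1.62, 1.62, 1.24 and 1.47 for their own courses. For GSTA4 and SULT2A1 it was 0.25 and 0.28. A distance grows with the course itself, so these values do not rank how well the genes were matched. These distances describe 4 groups of 2 libraries and carry no test.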

How the data were processed

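RNA of HepG2 cells was measured in 8 libraries, each put in its group by its title. Table columns carry short names, and NC51, NC52, SI51 and SI52 were taken for the mimic libraries. Per the file headers, the authors deposited for each gene a read count, which is not whole and was taken as an expected count, and an expression value, read from the values as FPKM. HISAT2 2.0.4, Bowtie2 2.2.5, RSEM 1.2.8 and GRCh38.p12 are named, with no role, in the submitters' processing notes. Any use of strand and the way reads of paralogs were divided are details not given in the sources used here. A second table of the control siRNA libraries repeats the same values (0 differing cells) and was not used.

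Expected counts were rounded, filtered with filterByExpr (about 0.461 CPM in 2 libraries) and scaled by TMM. They were fitted over all 8 libraries in edgeR 4.0.16 under R 4.3.3 with 1 coefficient for each group and the quasi-likelihood test. This test was tried on simulated data in which few genes changed. That trial does not show how it behaves where most genes are called, as with the mimic under control siRNA. Adjusted p-values are Benjamini-Hochberg over 17715 genes, 2-sided, and SE is the absolute log2 fold change divided by the root of F, an approximation. CPM are TMM-scaled. Alternatives were DESeq2 1.42.0, limma 3.58.1 voom, other scalings and filters, a replicate block, libraries left out and paralogs summed. Replicates differed beyond sampling noise, with a chi-square of 4.53 to 10.6 for each degree of freedom, and each library was counted as a sample. That spread does not show that the 2 libraries of a group are separate cultures.

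The 10 genes and the other lists were chosen with earlier results of these data known. From each other list, up to 3 called genes with the largest change per comparison are named, if they average at least 100 counts and their libraries do not overlap between the groups. Values of BAAT, of GGT1 and of PAPSS1 with the mimic are given outside this rule. Of the gene IDs, 22421 matched RefSeq, all 10 members among them. Intervals on counts cover counting error only. Protein sequences were not used here, and 1 of the regulators and 1 promoter motif are not reported here.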

Additional observations from a re-analysis of the deposited data

Results flagged for a closer look

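For 6 of the 10 genes the mimic effect differed between the siRNA backgrounds by a test of the difference itself (edgeR, adjusted p under 0.05), which 31.3% of all genes passed, given as the log2 effect under importin8 siRNA minus that under control siRNA. GSTM3 differed by 3.21 and UGT2B4 by 1.61, with mimic effects of 0.09 and -0.18 under importin8 siRNA and -3.12 and -1.79 under control siRNA. UGT2B7 differed by -1.29 and UGT2B10 by -1.48, with effects of 0.18 and -0.33 under importin8 siRNA and 1.47 and 1.15 under control siRNA. SULT2A1 differed by 0.47 and SULT1A1 by 0.39, and both of these calls were lost when certain single libraries were left out.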

How the results depend on the processing

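With 2 libraries per group the spread rests on 4 residual degrees of freedom, and counts of close paralogs are shared out by estimate. Of the alternatives for single genes, 882 kept the direction and the side of the threshold, 44 lost a call, 21 gained one and 12 changed sign. A fold of at least 2 beside the p threshold left 4432, 1131, 2493 and 1367 genes in the mimic comparisons under control and importin8 siRNA and the siRNA comparisons without and with the mimic, and 1930 for the difference of mimic effects. It left 2 of the 10 lower with the mimic under importin8 siRNA, 2 higher with the siRNA in mimic-treated cells and 2 positive differences. A fit of the 4 siIPO8 libraries alone gave 2 higher with the mimic (UGT2B7 and SULT2A1). With paralogs summed, 0 of the 10 were lower with the siRNA in mimic-treated cells and 6 differences were negative, since UGT2B4 took the family's 0.79 for the mimic under control siRNA and -0.97 for the difference, GSTA4 -1.25 and UGT2B7 -0.18 for the mimic under importin8 siRNA, UGT2B7 0.12 for the siRNA with the mimic, and GSTA1 and GSTA4 -0.54 for the difference.

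Leaving out single libraries gave 8887 to 10180, 3545 to 6087, 6427 to 8163, 4063 to 6390 and 4187 to 5706 genes called in the order above. The count of 3545 came without siIPO8-NC replicate 2, and 3551 without siIPO8-miR-552-3p replicate 1. The 10 genes gave 0 to 2 higher with the mimic under importin8 siRNA (2 without NC replicate 1), 4 to 7 higher with the siRNA without the mimic and 2 to 4 positive differences, 2 without siIPO8-miR-552-3p replicate 2, either siIPO8-NC library or miR-552-3p replicate 2. GSTM3 under importin8 siRNA, which did not pass, ran from -0.32 to 0.67 and changed sign at -0.05 without siIPO8-miR-552-3p replicate 1 and -0.32 without siIPO8-NC replicate 2, and the difference for GSTA1 ran from -0.15 to 0.25 and changed sign at -0.02, -0.15 and -0.1 without siIPO8-miR-552-3p replicate 1, miR-552-3p replicate 2 and NC replicate 2. Where not stated, the cause was not tested. Same-numbered libraries did not deviate together (correlations -0.0101 to 0.0986, 0 of 6 pairs over 0.1), and with the replicate number as a block 10424, 5847, 8496, 6121 and 5786 genes were called in the same order and no count of the 10 changed. Without both NC libraries, an alternative chosen after seeing the data, SULT1E1 also rose with the siRNA in mimic-treated cells (1.68, adjusted p = 0.032).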

Other observations

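Genes within 500 kb of the 10 did not all follow them. Over all genes tested, 28.9% were called higher and 29.5% lower in miR-552-3p against NC libraries. In siIPO8-NC against NC libraries these shares were 25.4 and 21.6%. Around UGT2B4, UGT2B7, UGT2B10 and SULT1E1, 6 other genes were tested, and 1 rose and 2 fell in miR-552-3p against NC libraries, with a median of -0.04, while 3 rose and 1 fell in siIPO8-NC against NC libraries. Around GSTA1, GSTA2 and GSTA4, 9 were tested. In miR-552-3p against NC libraries 1 rose and 4 fell, with a median of -0.17, where GSTA1 and GSTA2 fell. In siIPO8-NC against NC libraries 1 rose and 5 fell, with a median of -0.43, where GSTA1 and GSTA2 rose. Around GSTM3, which fell in both comparisons, 19 were tested. In miR-552-3p against NC libraries 4 rose and 11 fell, with a median of -0.53. In siIPO8-NC against NC libraries 6 rose and 3 fell, with a median of -0.12. Around SULT1A1, 7 of 21 rose and 7 fell with the mimic under control siRNA, and around SULT2A1, 4 of 16 rose and 3 fell. In siIPO8-NC against NC libraries 10 rose and 3 fell around SULT1A1, and 2 rose and 3 fell around SULT2A1.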
